A study of Mus musculus with 36 samples.

Results

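The genes that encode the protein components of the cytosolic ribosome were followed in brain samples of APP/PS1 and wild-type mice. Members were taken by symbol: every gene of the mRNA table named Rpl or Rps with a number, and Rplp0, Rplp1, Rplp2 and Rpsa, leaving out the Rps6k kinases. The rule found 84 of the 22154 genes of the table, 33 of the small subunit and 51 of the large subunit, from 181 of 48717 transcript rows. Of the 84, 81 had a mean of at least 0.5 FPKM (sequenced fragments scaled by transcript length and library size) and entered the tests, and Rpl3l, Rpl10l and Rpl39l did not. Ribosomal proteins coat the ribosomal RNA of both subunits, and their mRNAs are among the most abundant of most cells. Their mRNAs carry a run of pyrimidines at their start (the terminal oligopyrimidine motif, TOP), through which mTORC1 and the RNA-binding protein LARP1 set how strongly they are translated, so the mRNA level and the rate of protein synthesis are separate quantities. In neurons ribosomal protein mRNAs are also found in dendrites and axons.

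The APP/PS1 mice express the APP695swe and PS1-dE9 mutations found in familial Alzheimer's disease, and the controls were wild type. All were labelled C57BL/6 and were sampled at 6 or 9 months of age, giving 4 groups of 3 long RNA libraries each. The sources used here give neither the promoter that drives the transgenes nor the sex of the animals. Whether each library stands for its own animal is not in the labels, so the p-values reflect only how far these libraries vary, and that variation may be technical. The tissue label reads brain while the extraction protocol speaks of retinas. The 9 neuron markers summed to 2164 to 2435 FPKM in the 12 libraries, and the 9 retina markers to 1.00 to 1.96 FPKM, with 1 of the 9 above a mean of 0.5 FPKM. In whole tissue, fewer cells of a type and less RNA per cell cannot be told apart. The mRNA and lncRNA tables hold FPKM and no counts, so the depth behind these levels is unknown. Where 3 values of a group are given below, they are those of libraries 1, 2 and 3 in that order.

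Pyrimidine-rich letters at the gene start were more frequent among these genes than among others, although most of their starts in the table lacked each pyrimidine motif searched. The RefSeq table of starts (build GRCm38.p6, 250 bases before to 50 bases after each start) held 75 starts of 63 of the 84 genes. CTTTC on the transcribed strand, within 20 bases either side of the start, was found at 25.3% of those 75 starts and at 5.45% of the 32776 starts of other genes. A run of 10 pyrimidines that began within 10 bases of the start was found at 24.0% and 4.73%. CGGAAG on either strand, the core of the site bound by ETS-family factors such as GABPA, was present in the 300 bases of 60% of the member starts and 16.8% of the others. TATAAA on either strand was present in 9.33% and 13.6%. These matches are a description of the letters, and none of the values below tests them. The 6 stretches shown run from 50 bases before the start to the first 20 bases of the transcript. They were chosen because the results below turn on these genes: Rps3a1, Rpl26, Rps18 and Rps27 had the step-like levels, Rpl23 had the smallest p of a genotype comparison, and Rpl35 had age differences of opposite sign in the 2 genotypes. Capitals mark CTTTC, and CGGAAG in either direction (CTTCCG on the other strand). CTTTC cannot lie inside CGGAAG or CTTCCG.
Rps3a1 (chr3:86142649-86142718, minus strand): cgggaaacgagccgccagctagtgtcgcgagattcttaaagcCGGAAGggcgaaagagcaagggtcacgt
Rpl26 (chr11:68901516-68901585, plus strand): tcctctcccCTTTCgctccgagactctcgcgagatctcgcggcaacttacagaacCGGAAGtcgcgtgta
Rps18 (chr17:33955646-33955715, minus strand): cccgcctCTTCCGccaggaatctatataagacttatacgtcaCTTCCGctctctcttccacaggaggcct
Rps27 (chr3:90213629-90213698, minus strand): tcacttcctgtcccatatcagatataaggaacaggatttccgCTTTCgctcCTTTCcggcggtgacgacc
Rpl23 (chr11:97782420-97782489, minus strand): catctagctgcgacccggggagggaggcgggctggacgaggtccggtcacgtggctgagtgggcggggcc
Rpl35 (chr2:39005112-39005181, minus strand): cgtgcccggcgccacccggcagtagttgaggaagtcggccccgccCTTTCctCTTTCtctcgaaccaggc
Among these 6, CTTTC lay within 20 bases of the start in Rps27 and Rpl35, and a run of 10 pyrimidines began within 10 bases of it in Rps18 and Rpl35. CGGAAG, in either direction, lay within the stretches of Rps3a1, Rpl26 and Rps18, and the stretch of Rpl23 held none of these motifs.

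The tested ribosomal protein genes had a median level of 112 FPKM and ranged from 4.82 to 570.5 FPKM in their means over the 12 libraries. Together the 84 genes made up 3.20% to 3.56% of all FPKM of a library. Rplp1, an acidic protein of the stalk that recruits the elongation factors, had the highest mean. Its level was 612, 589 and 597 FPKM in wild type and 555, 546 and 477 FPKM in APP/PS1 at 6 months, and 576, 591 and 543 FPKM and 637, 579 and 544 FPKM at 9 months. The 2 other stalk genes were far lower per length of transcript: Rplp2, the second acidic protein, had a mean of 87.9 FPKM and Rplp0, which anchors both, of 106 FPKM. After Rplp1 came 4 small subunit genes, Rps21 at 343 FPKM, Rps15 at 298 FPKM, Rps14 at 281 FPKM and Rps29 at 278 FPKM. Within a library these neighbours changed places: the range of Rps14 over the 12 libraries (242 to 311 FPKM) lay inside that of Rps29 (192 to 333 FPKM). Rpsa, the small subunit protein also known as the laminin receptor, had a mean of 122 FPKM and ranged from 112 to 129 FPKM.

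The lowest levels among the tested genes were those of Rpl21 (4.82 FPKM), Rps4l (6.59 FPKM), Rpl7l1 (12.01 FPKM), Rps27l (15.6 FPKM) and Rps20 (18.9 FPKM). The coefficient of variation (CV, the SD as a percentage of the mean) over all 12 libraries had a median of 7.60% among the tested members. It was 8.29% among all 13593 genes tested, and 6.62% among the 9212 of them with a mean at least that of Rpl21, the lowest tested member. Rpl8, a large subunit protein near the peptidyl transferase centre, varied least of the tested members, with a CV of 2.20% and a range of 165 to 178 FPKM.

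**Figure D1:**
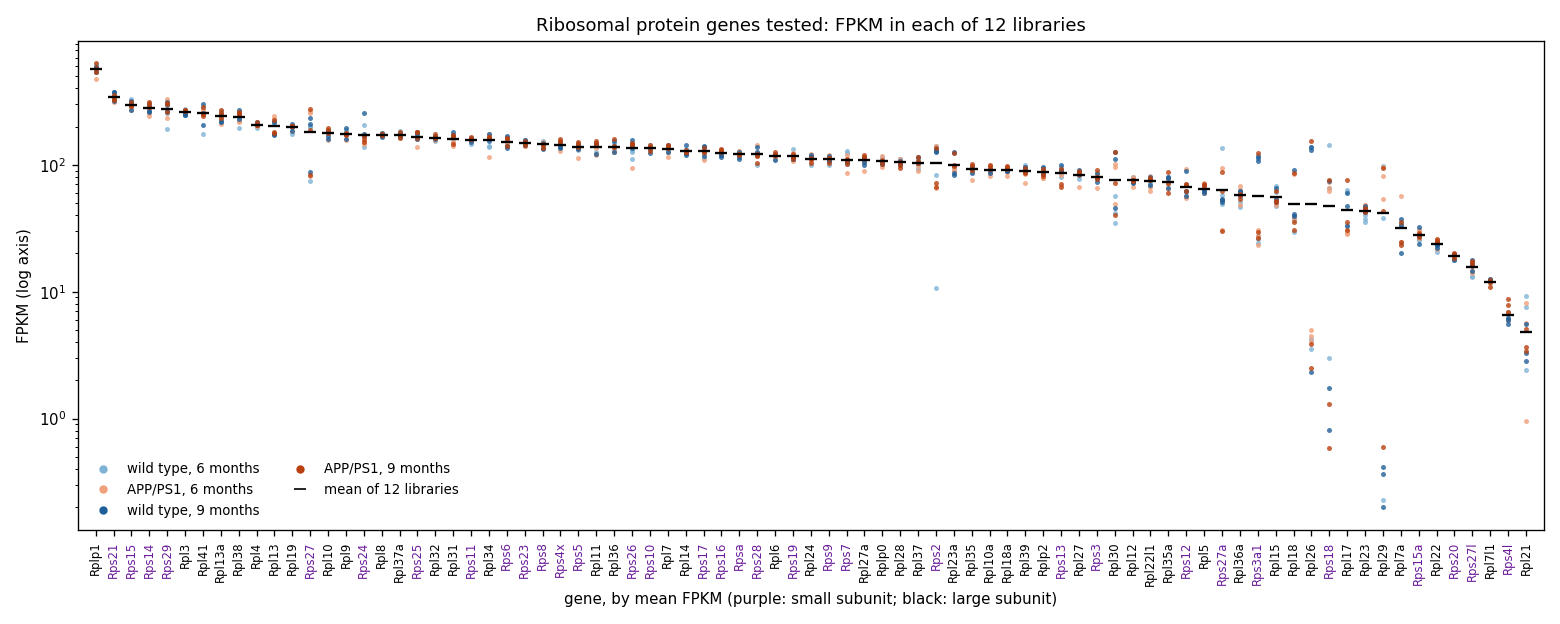
FPKM (log axis) of the 81 tested ribosomal protein genes, ordered by their mean; each dot is 1 of 12 libraries coloured by group, and each bar is the mean of the 12. The dots of most genes lie close together, while Rps2, Rpl26, Rps18 and Rpl29 have single libraries or groups of libraries far below the rest.

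Of the members, 7 are paralogs of another member. In 6 of the 7 pairs the paralog was the lower gene in every library. Rpl22l1 was the exception: its level was 71.7, 68.7 and 80.2 FPKM in wild type and 66.8, 81.7 and 62.4 FPKM in APP/PS1 at 6 months, and 76.6, 80.0 and 69.8 FPKM and 76.6, 76.9 and 78.4 FPKM at 9 months. Its parent Rpl22, a large subunit protein that also binds other RNAs, ranged from 20.7 to 26.0 FPKM. Rpl22l1 was thus the higher gene in 12 of 12 libraries and held 73.9% to 78.3% of the pair's summed FPKM.

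The other paralogs held small shares. Rps27l, a paralog known as a target of p53, had a mean of 15.6 ± 1.603 FPKM (SD, n = 12 libraries), beside 180.0 ± 77.4 FPKM of Rps27. Rpl7l1 had 12.01 ± 0.477 FPKM beside 133 ± 8.84 FPKM of Rpl7. Rps4l, which RefSeq lists as a transcribed pseudogene, had 6.59 ± 0.932 FPKM beside 144 ± 8.87 FPKM of the X-linked Rps4x. The paralogs known from muscle and testis were close to 0. Rpl3l, a paralog of striated muscle, was between 0.0230 and 0.136 FPKM, beside 261 ± 8.68 FPKM of Rpl3. Rpl39l was listed at 0 in 4 of 12 libraries and Rpl10l in 11 of 12.

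A subset of the members took levels that differed several-fold between libraries of the same group. In 12 of the 81 tested members (14.8%) the highest library was over 2 times the lowest, a share that was 11.4% among all 13593 genes tested, and 3.95% among the 9212 of them with a mean at least that of Rpl21. They were Rpl29, Rps18, Rpl26, Rps2, Rpl21, Rps3a1, Rps27a, Rps27, Rpl30, Rpl18, Rpl7a and Rpl17. The ratio was 2.65 in Rpl17, the smallest of the 12, and 1.84 in Rps24, the next member below.

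Rpl26, a protein at the exit of the large subunit's peptide tunnel, had 2 levels. It stood at 4.26, 139 and 3.56 FPKM in wild type and at 4.11, 4.96 and 4.48 FPKM in APP/PS1 at 6 months. At 9 months it stood at 130.1, 2.31 and 138 FPKM in wild type and at 2.48, 153 and 3.90 FPKM in APP/PS1. In 4 libraries it was thus at 130.1 to 153 FPKM and in the other 8 at 2.31 to 4.96 FPKM, with none between. The high libraries came from 3 of the 4 groups, and none was from APP/PS1 at 6 months.

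Rps3a1, which lies near the exit of the mRNA channel of the small subunit, also had 2 levels, but these lay closer to the groups. It was at 27.4, 24.0 and 26.0 FPKM in wild type and at 23.2, 30.4 and 27.5 FPKM in APP/PS1 at 6 months. At 9 months it was at 107, 114 and 117 FPKM in wild type and at 29.7, 124 and 26.7 FPKM in APP/PS1. All 3 wild-type libraries at 9 months and 1 of the 3 APP/PS1 libraries were high. Its single transcript in the table carried the whole difference.

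Rpl29, a large subunit protein also known to bind heparin, was at 0.226, 38.1 and 97.3 FPKM in wild type and at 95.5, 81.1 and 54.1 FPKM in APP/PS1 at 6 months. At 9 months it was at 0.199, 0.366 and 0.411 FPKM in wild type and at 43.2, 0.593 and 94.0 FPKM in APP/PS1. Its values were at or below 0.593 FPKM in 5 libraries and between 38.1 and 97.3 FPKM in the other 7. All 3 wild-type libraries at 9 months were low, as was 1 library of each genotype among the others.

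Rps2, a small subunit protein, was at 10.6, 82.5 and 142 FPKM in wild type and at 139.9, 128 and 66.2 FPKM in APP/PS1 at 6 months. At 9 months it was at 127, 134 and 128 FPKM in wild type and at 72.5, 135 and 67.3 FPKM in APP/PS1. Library 1 of the wild type at 6 months was far below all others. Within the sum, the leading transcript of Rps2 was ENSMUST00000054289 in some libraries and ENSMUST00000170715 in others. Library 1 of APP/PS1 at 6 months held 12.5 FPKM of the first and 127 FPKM of the second, and library 2 held 122 and 5.78 FPKM.

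Rpl18 showed an exchange between transcripts. ENSMUST00000072503 was at 82.2 to 89.9 FPKM in library 2 of the wild type at 9 months and in libraries 3 of APP/PS1 at both ages, and at most 2.77 FPKM in the other 9. ENSMUST00000135500 had 13.9 to 30.1 FPKM in those 9 libraries and at most 0.776 FPKM in the 3. The gene sum was 84.2 to 91.7 FPKM in the 3 libraries and 29.7 to 41.2 FPKM elsewhere. In the same 3 libraries, and in library 1 of the wild type at 6 months, Rps27 was at 74.8 to 87.2 FPKM, against 188 to 277 FPKM in the other 8.

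**Figure D2:**
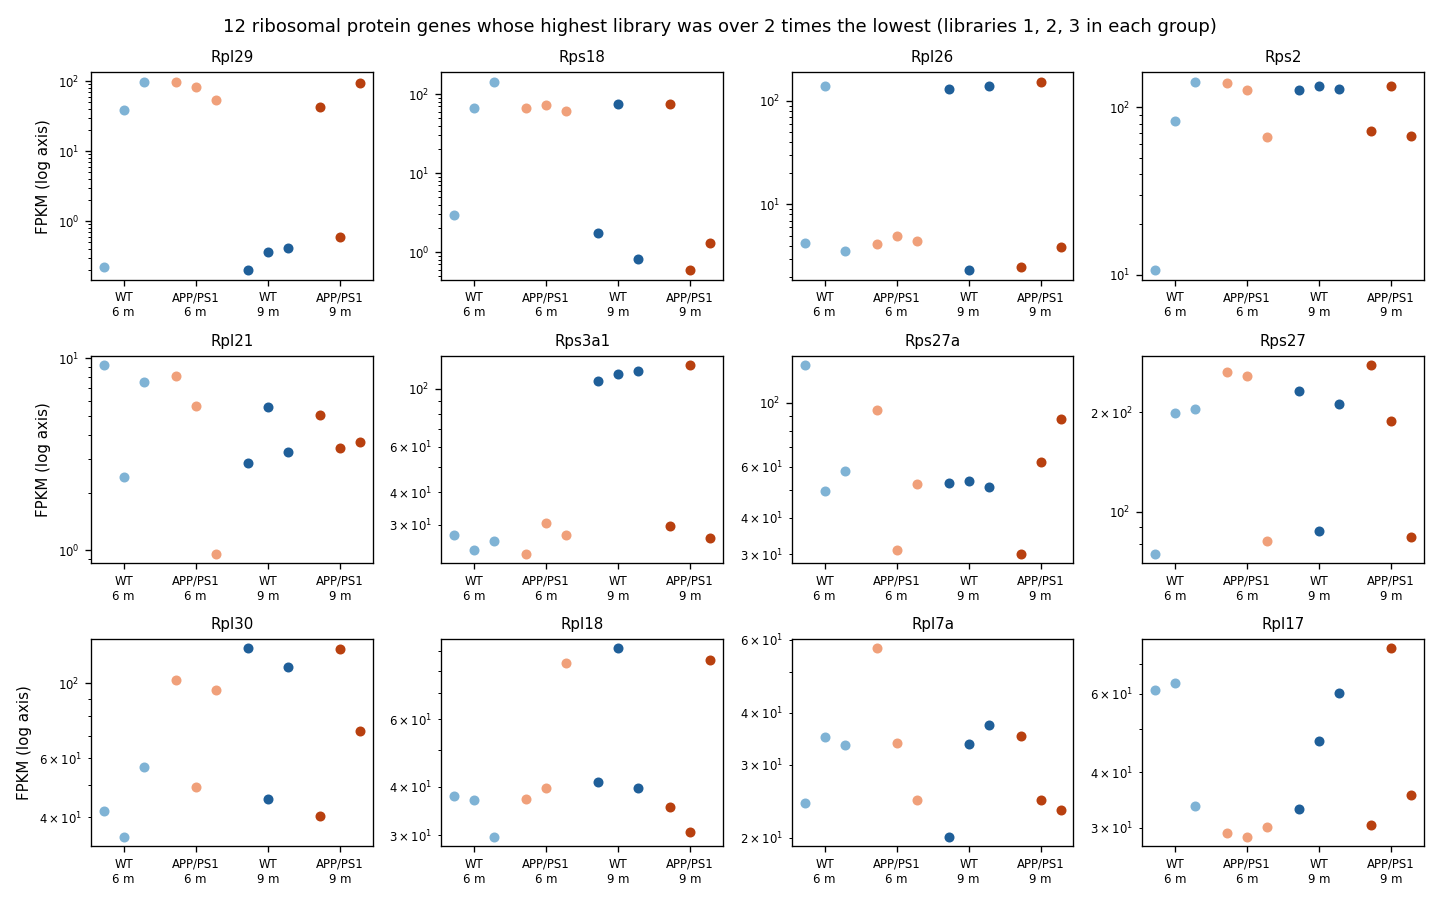
FPKM (log axes, a separate scale in each panel) of the 12 ribosomal protein genes whose highest library was over 2 times the lowest; each dot is 1 library, in the order 1, 2, 3 within a group (WT is wild type, m is months). The high and low libraries of Rps27 are spread over all groups. Those of Rpl26 and Rps18 are too, except that APP/PS1 at 6 months has no high library of Rpl26 and no low library of Rps18. Rps3a1 is high in all wild-type libraries at 9 months and in 1 APP/PS1 library.

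Rps18 and Rps27 were steadier once genes named as their copies were added. Rps18, a protein of the head of the small subunit, was at 2.99, 66.1 and 143 FPKM in wild type and at 66.0, 73.0 and 62.0 FPKM in APP/PS1 at 6 months, and at 1.75, 75.0 and 0.816 FPKM and 75.7, 0.586 and 1.29 FPKM at 9 months. Gm10260, which RefSeq lists as the Rps18 pseudogene Rps18-ps6, ran the other way: it was highest at 106 FPKM where Rps18 was lowest at 0.586 FPKM, and lowest at 3.09 FPKM where Rps18 was highest at 143 FPKM. Their sum ranged from 86.5 to 146 FPKM, with a CV of 15.4% against 96.2% of Rps18 alone. Rps27, a zinc-finger protein of the small subunit, had a CV of 43.0%, and its sum with the retrogene Rps27rt had one of 9.12% and a range of 261 to 360 FPKM.

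These 2 partners were found in a search chosen after the values were seen. For each of the 12 members, each of 24286 genes of the mRNA and lncRNA tables was added in turn, and only for these 2 members did the best partner bring the SD of the sum below 50% of the member's own. Over the tested members, 18 had a named copy in the table, and the CV of the sum was smaller than the member's own in 14 of them. Adding any gene raises the mean, which by itself lowers the CV, so this count does not show an exchange between member and copy. For Rpl13, 1 of the 14, the CV was 12.43% alone and 12.42% with its copy. Rps26, a protein at the mRNA exit that is mutated in Diamond-Blackfan anaemia, went from 13.1% to 5.65% with Rps26-ps1. The range over the libraries was 93.6 to 157 FPKM for Rps26 and 186 to 229 FPKM for this sum. Rps12 went from 17.96% to 10.7% with Rps12-ps3, although the spread in FPKM grew. The range was 54.8 to 92.6 FPKM for Rps12 alone and 120 to 181 FPKM for its sum. The sources used here do not give how reads shared by near-identical genes or transcripts were assigned, so the levels of the 18 members with a named copy, and of the other members with step-like levels, are uncertain.

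**Figure D3:**
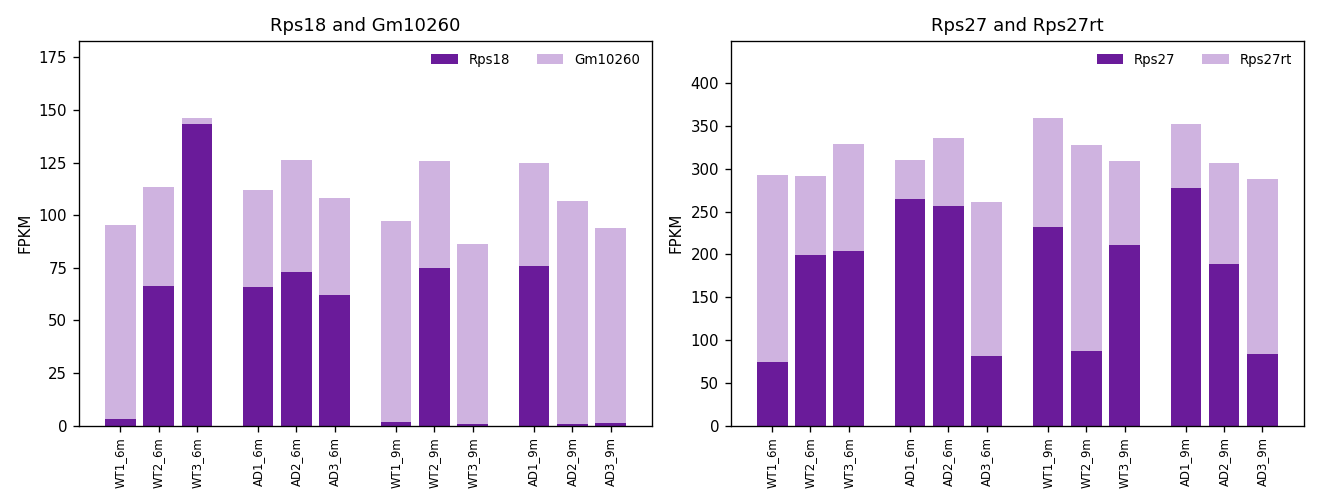
FPKM per library of Rps18 with Gm10260 (left) and Rps27 with Rps27rt (right), stacked from 0; the dark part of a bar is the ribosomal protein gene, the light part its named copy, and the labels give genotype (WT wild type, AD APP/PS1), library number and age. The sums stay within 86.5 to 146 FPKM and 261 to 360 FPKM while the dark part varies up to 244-fold and 3.71-fold.

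The first comparison asked which ribosomal protein genes differed between APP/PS1 and wild type at 6 months. None of the 81 passed (limma, adjusted p under 0.05 over all 13593 genes tested), where 0.0441% of all genes did. The smallest adjusted p was 0.155. At an unadjusted p under 0.05 there were 10 of the 81, against 11.7% of all genes. There were 33 members higher and 48 lower in APP/PS1, and their median log2 change was -0.03, against -0.01 over all genes. The 3 values of each group did not overlap for 1 member that was higher and 9 that were lower, and over all genes this held for 6.7% and 9.14%.

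Rpl23, a large subunit protein that binds MDM2, had the smallest p of the members at this age. It was at 39.9, 35.3 and 37.5 FPKM in wild type and at 42.5, 47.9 and 48.6 FPKM in APP/PS1. The groups did not overlap, and the log2 change was 0.30 (SE 0.064, adjusted p = 0.155). Rpl35, which lies near the exit of the peptide tunnel, was at 96.5, 93.9 and 98.8 FPKM in wild type and at 88.2, 91.1 and 76.2 FPKM in APP/PS1. Every APP/PS1 library was below every wild-type library, with a log2 change of -0.18 (SE 0.066, adjusted p = 0.328). Rplp1, with the values given above, was likewise lower in each APP/PS1 library (log2 change -0.19, SE 0.072, adjusted p = 0.351), and the change was -0.34 after quantile normalization. Rpl10a, a protein of the stalk through which spent tRNA leaves, was at 95.3, 91.6 and 90.4 FPKM in wild type and at 87.8, 86.9 and 81.2 FPKM in APP/PS1 (log2 change -0.12, adjusted p = 0.365). In the other direction, Rpl24 (log2 change 0.13, adjusted p = 0.407) and Rps29 (0.30, adjusted p = 0.443) had groups that overlapped. The change of Rps29 was 0.16 without library 2 of the wild type and 0.20 without library 3 of APP/PS1 at 6 months.

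Library 3 of APP/PS1 at 6 months stood apart and bears on the median at this age. It had the lowest sum over the members, 9451 FPKM against 9907 to 10656 FPKM in the other 11, and it was the lowest of the 12 libraries for 28 of the 81 members. The median deviation of the members from their own means was -0.12 (log2) in this library and between -0.05 and 0.08 in the others. Some other gene groups were also low in the same library: nuclear oxidative phosphorylation genes deviated by -0.11, mitochondrial ribosomal protein genes by -0.08 and all genes by -0.02. Mitochondrially encoded genes deviated the other way, by 0.52. The 4 ribosomal protein genes that the symbol rule leaves out were also low, by -0.15. Translation factors and other TOP genes deviated by only -0.01, and ribosome biogenesis genes by -0.003. Lars2, which encodes the mitochondrial leucyl-tRNA synthetase, was at 331 FPKM there and at 19.2 to 60.7 FPKM elsewhere. The part of these shifts in the members' values was not tested. Without this library 41 members were higher in APP/PS1 at 6 months with a median log2 change of 0.00, none passed, and the change of Rpl35 was -0.10 and that of Rplp1 -0.12. The 12 choroid plexus markers, another tissue component that varied, summed to 6.79 to 299.8 FPKM in wild type and 103 to 336 FPKM in APP/PS1 at 6 months, and to 315 to 359 FPKM and 78.7 to 302 FPKM at 9 months. With the choroid plexus level as a covariate the median change of the members at 6 months was 0.00 (log2), and after quantile normalization it was -0.01. Other marker sums also did not overlap between the genotypes. At 6 months astrocyte markers summed to 885 to 899.7 FPKM in wild type and 966 to 1012 FPKM in APP/PS1. The low sums of retina markers were 1.57 to 1.81 and 1.00 to 1.44 FPKM. At 9 months the sums of microglia, pituitary and ependyma markers were apart. Microglia markers summed to 141 to 157 FPKM in wild type and 185 to 224 FPKM in APP/PS1. Pituitary markers summed to 3.88 to 19.2 and 19.98 to 241.9 FPKM, and ependyma markers to 12.7 to 13.2 and 9.22 to 11.2 FPKM. Some sums were also apart between 6 and 9 months. In APP/PS1 these were oligodendrocyte markers (753 to 804 and 838 to 901 FPKM), and those of microglia and pituitary (163 to 178 and 1.75 to 14.5 FPKM at 6 months). In wild type these were choroid plexus and endothelium markers (60.9 to 66.4 and 69.6 to 79.8 FPKM for endothelium). The part of these differences in the members' values was not tested.

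**Figure D4:**
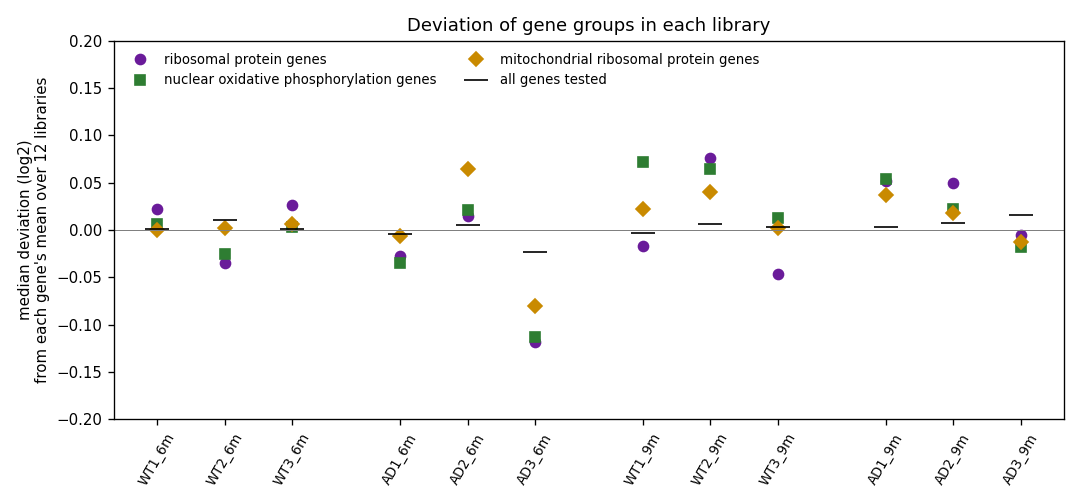
Median deviation (log2) from each gene's own mean over the 12 libraries, for the 81 ribosomal protein genes, 70 nuclear oxidative phosphorylation genes, 78 mitochondrial ribosomal protein genes and all 13593 genes tested; each column is 1 library (WT wild type, AD APP/PS1, with library number and age). In library 3 of APP/PS1 at 6 months the 3 groups lie at -0.12, -0.11 and -0.08, the lowest of each.

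At 9 months the same comparison again gave no member past the threshold, which 0.0956% of all genes passed. The smallest adjusted p was 0.187, and 8 members had an unadjusted p under 0.05, against 9.73% of all genes. There were 47 members higher and 34 lower in APP/PS1, with a median log2 change of 0.02, against 0.01 over all genes. The groups did not overlap for 9 members that were higher and 1 that was lower, and over all genes this held for 9.28% and 8%.

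Rps4l, the transcribed pseudogene of low level, had the smallest p at 9 months: it was at 5.94, 6.20 and 5.57 FPKM in wild type and at 8.74, 6.98 and 7.90 FPKM in APP/PS1. The groups did not overlap, with a log2 change of 0.40 (SE 0.090, adjusted p = 0.187). Its parent Rps4x was at 135, 139 and 150.3 FPKM in wild type and at 151, 154 and 161 FPKM in APP/PS1, again with every APP/PS1 library higher (log2 change 0.14, SE 0.055, adjusted p = 0.453). Rpl3, a large subunit protein close to the peptidyl transferase centre, was at 246, 256 and 249 FPKM in wild type and at 271, 269 and 267 FPKM in APP/PS1. Its groups were apart by a small step, with a log2 change of 0.10 (SE 0.036, adjusted p = 0.381). Among the lower members, Rps13 was at 90.1, 100.3 and 91.4 FPKM in wild type and at 92.9, 70.6 and 66.3 FPKM in APP/PS1, so that 1 APP/PS1 library lay inside the wild-type range (log2 change -0.31, adjusted p = 0.400). Without library 3 of APP/PS1 at 9 months the change of Rps13 was -0.21. Rps24 was lower by -0.29 (log2, adjusted p = 0.616), a difference that rested on 255 FPKM in library 3 of the wild type: without it the change was -0.10, and with the most abundant transcript only it was 2.56.

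Rps3a1, with its step-like levels, had a log2 change of -1.28 at 9 months (SE 0.44, adjusted p = 0.373), and library 2 of APP/PS1 decided it. Without that library, the only APP/PS1 library at the high level, the change was -1.99 and the adjusted p 1.16e-05, so that 1 member passed. This small p came with leaving out the 1 APP/PS1 value that stood at the wild-type level. The age comparison in wild type, in which that library is in neither group, gave a log2 change of 2.12 (SE 0.44, adjusted p = 0.168) in the fit of all 12 libraries. That library widened the spread that all groups share: without it the adjusted p was 6.33e-06, and with only the wild-type libraries in the fit it was 5.35e-05, at the same change of 2.12. In both fits Rps3a1 was the one member that passed. The share of all genes that passed in these refits is not given here.

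Between 6 and 9 months in wild type, 40 members were higher at 9 months and 41 lower, with a median log2 change of 0.00 for the members and of 0.00 for all genes. None passed, where 0.0441% of all genes did, and the smallest adjusted p was the 0.168 of Rps3a1. At an unadjusted p under 0.05 there were 8, against 10.3% of all genes. The groups did not overlap for 8 members that were higher and 5 that were lower, and over all genes this held for 8.55% and 9.17%. Rpl23 was at 42.8, 47.6 and 45.5 FPKM at 9 months, above each of the 6-month values given above (log2 change 0.27, SE 0.064, adjusted p = 0.2505). The same 3 wild-type libraries at 6 months thus enter both differences of Rpl23. Rpl38, known for its role in the translation of homeobox mRNAs, was at 227, 195 and 238 FPKM at 6 months and at 273, 258 and 229.5 FPKM at 9 months, with overlap (log2 change 0.20, adjusted p = 0.453), and its change was 0.12 without library 2 at 6 months, 0.31 with the choroid plexus level as a covariate and -0.25 with the most abundant transcript alone. Rps19, the first gene linked to Diamond-Blackfan anaemia, was at 123, 134 and 121 FPKM at 6 months and at 114, 111 and 110.2 FPKM at 9 months. Its 9-month libraries were all lower (log2 change -0.17, SE 0.059, adjusted p = 0.367), with -0.31 for the most abundant transcript alone. The change of Rpl29 (log2 -4.42, SE 1.92, adjusted p = 0.471) came from its step-like levels, with 1 of the 3 wild-type libraries at 6 months as low as those at 9 months. It was -6.75 without library 1 and -2.91 without library 3 at 6 months, -7.01 with the choroid plexus covariate and -1.50 with the most abundant transcript alone.

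In APP/PS1 mice 58 members were higher at 9 than at 6 months and 23 lower, with a median log2 change of 0.05 against 0.02 over all genes. None of the 81 passed, nor did any other gene (0%), and the smallest adjusted p was 0.160. At an unadjusted p under 0.05 there were 11 of the 81, all higher. Of all 13593 genes 13.1% were under it in either direction, 1148 of them higher and 636 lower. The groups did not overlap for 16 members that were higher and for 0 that were lower, and over all genes this held for 10.8% and 6.73%. Library 3 at 6 months is 1 of the 3 libraries on the lower side. Without it 52 members were higher, the median log2 change was 0.04, and none passed. The median also moved with the scaling: it was 0.01 with 50 members higher after quantile normalization, and 0.03 after rescaling without the mitochondrially encoded genes. It was 0.08 without library 2 at 6 months, and 0.08 without library 3 at 9 months.

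Rpl10a had the smallest p of this comparison: it was at 99.3, 98.02 and 92.7 FPKM at 9 months, above each of the 3 values at 6 months (log2 change 0.18, SE 0.045, adjusted p = 0.160). Rps4l was higher too, from 6.00, 5.95 and 6.79 FPKM to the 9-month values given above (log2 change 0.32, adjusted p = 0.206). Rpl27a was at 106, 105 and 90.03 FPKM at 6 months and at 119, 116 and 112 FPKM at 9 months, with no overlap (log2 change 0.21, adjusted p = 0.232), and at 0.13 without library 3 at 6 months. Rps14, which lies at the platform of the small subunit and is lost in the 5q- syndrome, was at 257, 282 and 242 FPKM at 6 months and at 311, 299.7 and 287 FPKM at 9 months (log2 change 0.20, adjusted p = 0.247). The lower members had larger p. The log2 change was -0.23 for Rps13 (adjusted p = 0.423) and -0.18 for Rps28 (adjusted p = 0.469), and for Rps18 it was -3.86 (adjusted p = 0.436) alone and -0.05 once summed with its named copies. Single libraries moved each of these: the change of Rps13 was -0.38 without library 1 and -0.13 without library 3 at 9 months, and that of Rps28 was -0.10 without library 3 at 6 months and -0.11 without library 2 at 9 months. That of Rps18 alone was -5.88 without library 1 at 9 months.

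The genotype difference at 9 months was set against that at 6 months as a difference of differences. None of the 81 passed, where 0.00736% of all genes did, the smallest adjusted p was 0.256, and 13 had an unadjusted p under 0.05, against 11.3% of all genes. There were 51 with a more positive genotype difference at 9 months and 30 with a more negative one, and the median was 0.06 (log2) against 0.02 over all genes. Without library 3 of APP/PS1 at 6 months these became 45 members and a median of 0.02. Rpl23 had -0.34 (SE 0.091, adjusted p = 0.256), Rpl10a 0.21 (adjusted p = 0.279), Rps4l 0.42 (adjusted p = 0.301), Rps14 0.30 (adjusted p = 0.313), Rpl24 -0.22 (adjusted p = 0.350) and Rps28 -0.34 (adjusted p = 0.390). With the most abundant transcript alone Rps14 had 0.18. By subunit the median of this difference was 0.02 for the 33 small subunit genes and 0.08 for the 48 tested large subunit genes. In library 3 of APP/PS1 at 6 months the small subunit genes deviated by -0.08 (log2) and the large subunit genes by -0.15. The medians by subunit without that library are not given here.

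**Figure D5:**
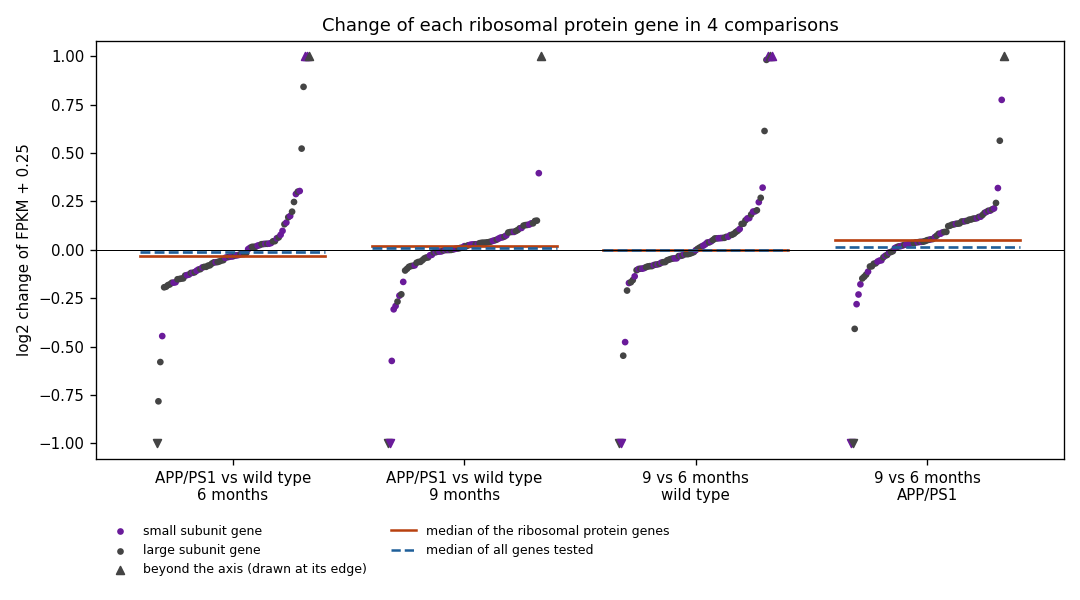
log2 change of FPKM + 0.25 of each of the 81 tested ribosomal protein genes in 4 comparisons; the genes are sorted within each comparison, triangles at the edge stand for genes beyond 1 log2 unit, and lines give the median of the members and of all genes. Most members lie within 0.25 of 0 in each comparison, and the medians lie between -0.03 and 0.05.

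Genes that work with the ribosomal proteins were given by lists. No gene of these lists passed the threshold in any of the 5 comparisons, where between 0% and 0.0956% of all genes in the mRNA table did. At an unadjusted p under 0.05 for the genotype at 6 months, which 11.7% of all genes reached, there were 1 of 23 translation factors and other TOP genes, 5 of 40 ribosome biogenesis genes, 5 of 27 control genes, 4 of 13 stress response genes, 3 of 14 quality control genes and 7 of 78 mitochondrial ribosomal protein genes. Among ribosomal protein genes that the symbol rule leaves out, Rpl36al was 49.9 ± 1.32 FPKM (SD, n = 3) in wild type at 6 months and 57.0 ± 2.61 FPKM at 9 months (log2 change 0.19, adjusted p = 0.269). Fau, whose product is a ubiquitin-like protein fused to a small subunit protein, was 171 ± 6.55 FPKM and 149.8 ± 5.60 FPKM (log2 change -0.19, adjusted p = 0.357). Of 23 translation factors and other TOP genes, 15 were higher in APP/PS1 at 6 months and 13 at 9 months, with medians of 0.03 and 0.01. Of 40 ribosome biogenesis genes the counts were 23 and 20, with medians of 0.03 and 0.00. Gar1, a protein of the box H/ACA ribonucleoproteins that modify ribosomal RNA, was 4.53 ± 0.996 FPKM in wild type and 6.20 ± 0.603 FPKM in APP/PS1 at 6 months (log2 change 0.45, adjusted p = 0.282).

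Of 27 genes that control ribosomal protein synthesis (mTORC1, LARP1, S6 kinases, MYC and its partners), 15 were higher in APP/PS1 at 6 months and 8 at 9 months. Mxd4, a MAX partner that opposes MYC, came nearest to the threshold among these lists: it was 25.5 ± 1.81 FPKM in wild type and 19.0 ± 1.33 FPKM in APP/PS1 at 6 months (log2 change -0.42, SE 0.065, adjusted p = 0.0667). In the integrated stress response list, 11 of the 13 tested genes were higher in APP/PS1 at 6 months, with a median log2 change of 0.11, and 3 of 13 at 9 months, with a median of -0.04. Atf4, the transcription factor at the centre of that response, was 34.1 ± 1.90 FPKM in wild type and 45.9 ± 2.29 FPKM in APP/PS1 at 6 months (log2 change 0.43, SE 0.097, adjusted p = 0.155). Its target Asns, which makes asparagine, was 32.98 ± 2.55 and 42.1 ± 2.80 FPKM (log2 change 0.35, adjusted p = 0.200). Of 14 genes of ribosome quality control, 5 were higher in APP/PS1 at either age. Rnf10, a ubiquitin ligase that marks small subunit proteins, was 64.5 ± 1.96 FPKM at 6 months and 56.9 ± 1.43 FPKM at 9 months in APP/PS1 (log2 change -0.18, adjusted p = 0.116). Of the 16 genes named or listed by RefSeq as copies of ribosomal protein genes that were tested, 10 were higher in APP/PS1 at 6 months and 7 at 9 months. Rps12-ps3 was 110.2 ± 6.20 FPKM in wild type and 75.2 ± 8.63 FPKM in APP/PS1 at 6 months (log2 change -0.56, SE 0.11, adjusted p = 0.131), while Rps12 summed with it had a log2 change of -0.30 (adjusted p = 0.294).

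Mitochondrial genes were set beside the members. Of 78 mitochondrial ribosomal protein genes 35 were higher in APP/PS1 at 6 months and 36 at 9 months, with medians of -0.01 at both ages. Mrpl27 was 8.37 ± 0.192 FPKM in wild type at 6 months and 16.3 ± 2.06 FPKM at 9 months (log2 change 0.93, SE 0.17, adjusted p = 0.118). Of 70 nuclear oxidative phosphorylation genes 25 were higher in APP/PS1 at each age, with medians of -0.03 and -0.02. Cox7c was 176 ± 11.7 FPKM in wild type and 137 ± 15.5 FPKM in APP/PS1 at 6 months (log2 change -0.36, adjusted p = 0.155). The 13 mitochondrially encoded genes were all higher in APP/PS1 at 6 months, by a median of 0.33, and none passed. Of 12 long noncoding genes that host small nucleolar RNAs, which guide the modification of ribosomal RNA, 8 and 9 were higher in APP/PS1, and none passed in any comparison, where between 0% and 0.146% of the 1367 lncRNA genes did. Snhg18 was 0.906 ± 0.0764 FPKM at 6 months and 0.588 ± 0.0628 FPKM at 9 months in APP/PS1 (log2 change -0.46, adjusted p = 0.567).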

How the data were processed

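Long RNA libraries of 4 groups (APP/PS1 and wild type, 6 and 9 months, 3 libraries each) were used; circRNA and miRNA tables were not used here. The authors deposited FPKM per transcript for mRNA and lncRNA, and no counts of those libraries were used, so depth is unknown. The submitters' processing notes name Bowtie 0.12.2 and the build mm8 without saying for which step, and the sources used here give neither the annotation nor the counting tool. FPKM were summed per gene and tested as log2(FPKM + 0.25) with limma 3.58.1 (lmFit, eBayes with a trend) in R 4.3.3. Genes needed a mean of at least 0.5 FPKM, all 12 libraries shared 1 model of 4 group means, tests were two-sided, and Benjamini-Hochberg adjustment ran over all genes. A log2 change is on the log2(FPKM + 0.25) scale and understates changes of low genes. The fit was tested on simulated data. Members, lists and tests were chosen with earlier results of these data known. Named were the members with the 3 smallest p in each direction and comparison, the 5 highest and 5 lowest levels, stalk genes, Rpsa, paralog pairs, and 2 genes of each list. The genes with step-like levels, and the copies, were named after their values were seen. Alternatives were the pseudocount, filter, scaling, trend, transcript choice, a choroid plexus covariate, the groups fitted, a replicate block and leaving out each library. The 2 that left out the step-like members or summed members with copies were added after seeing the data.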

Additional observations from a re-analysis of the deposited data

Results flagged for a closer look

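Rpl3 and Rpl35 were set apart because their age differences had opposite signs in the 2 genotypes, with no overlap between the ages in either. The share of all genes that met this rule is not given here. Over all genes, the ages did not overlap for 8.55% (higher) and 9.17% (lower) in wild type, and for 10.8% and 6.73% in APP/PS1. Rpl3 had a log2 change of -0.0893 from 6 to 9 months in wild type, where its libraries went from 258, 266 and 275 FPKM to 246, 256 and 249 FPKM. In APP/PS1 its log2 change was 0.0496, from 256, 262 and 260.5 FPKM to 271, 269 and 267 FPKM. Rpl35 had a log2 change of -0.0841 in wild type, from 96.5, 93.9 and 98.8 FPKM to 93.9, 92.9 and 86.2 FPKM. In APP/PS1 the log2 change was 0.191, from 88.2, 91.1 and 76.2 FPKM to 98.02, 101 and 91.8 FPKM. The difference between the genotypes did not pass over all genes (limma, adjusted p = 0.350 for Rpl3 and 0.327 for Rpl35). For Rpl35 in wild type the nearest libraries of the 2 ages were both at 93.9 FPKM.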

How the results depend on the processing

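Over the settings other than leaving out a library, no ribosomal protein gene passed in any comparison, except that 1 (Rps3a1) passed for age in wild type with only the groups of the comparison in the fit. Leaving out each library in turn gave 0 at 6 months and for age in APP/PS1. It gave 0 to 1 for the genotype at 9 months, for age in wild type and for the difference of the genotype effects. The 1 was Rps3a1 each time, without library 2 of APP/PS1 at 9 months, its only high APP/PS1 library. The share of all genes that passed in these fits is not given here. Leaving out a library moved the median change of the members between -0.05 and 0.00 (genotype, 6 months), -0.00 and 0.05 (genotype, 9 months), -0.02 and 0.02 (age, wild type), 0.04 and 0.08 (age, APP/PS1) and 0.02 and 0.10 (difference of the genotype effects). Quantile normalization brought the median for age in APP/PS1 to 0.01. With the choroid plexus level as a covariate the median became 0.0694 for age in wild type and -0.0218 for the difference of the genotype effects, and the cause was not tested. With the most abundant transcript only, Rps24 at 9 months reversed to 2.56 and Rpl38 with age in wild type to -0.25. No pairing by library number was seen: deviations of same-numbered libraries correlated between -0.12 and 0.13, over 0.1 in 1 of 18 pairs. Of the 18 best matches, 6 had the same number. With a replicate block 0 members passed in each comparison, and the median changes stayed at -0.03, 0.02, -0.00, 0.05 and 0.06. Pseudocount, filter, trend and scaling changed no call. FPKM alone leave the counting error of each level unknown.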
